A study of Mus musculus with 6 samples.

Results

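*Saa3* encodes serum amyloid A3, a secreted acute phase protein, and it was examined here together with 9 other acute phase and inflammation genes in the mouse tibia. The 10 genes were *Saa1*, *Saa2*, *Saa3*, *Lcn2*, *Hp*, *Orm1*, *Il1b*, *Il6*, *Tnf* and *Ptgs2*, taken by gene symbol from the 55401 genes counted in each library. They were assembled around *Saa3*, which was chosen by its measured level, higher in the *Atrx*-deleted tibias of these same libraries, so its difference between genotypes is described without a test. The question was whether the *Saa3* difference belonged to a wider inflammatory response. Whole tibias were taken from 3 male mice with *Atrx* deleted in preosteoblasts (Osterix-Cre; Atrxf/y, herein Atrx-cKO) and from 3 male controls carrying the floxed allele without Cre (Atrxf/y), all at 8 weeks of age. The Cre transgene is of the Tet-off kind, and mice of this line were kept on doxycycline, which holds Cre off, until 3 weeks of age. Cre acts in cells of the osteoblast lineage, whereas the RNA came from the whole bone with its marrow, and because no control carried Cre, effects of the transgene and of *Atrx* loss cannot be told apart in these libraries. Polyadenylated RNA was sequenced and reads were counted per gene, with 55178546 to 58029939 counts on genes per Atrx-cKO library (median 56970091) and 50977777 to 70571655 per control library (median 54395736).

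Acute phase proteins are plasma and tissue proteins whose synthesis changes during infection or injury. The cytokines IL-1, IL-6 and TNF drive that change in the liver through the transcription factors NF-κB, STAT3 and C/EBP. *Saa1* and *Saa2* are made mainly in the liver, whereas *Saa3* is made largely outside it, in macrophages, adipocytes and other stromal and epithelial cells. *Lcn2* (lipocalin 2, which binds bacterial siderophores) and *Hp* (haptoglobin, which binds free hemoglobin) respond to the same cytokines, and both are also made by developing neutrophils, which are abundant in bone marrow.

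The mouse *Saa* genes are close copies of each other, so the sequences are shown first, since a read can be credited to *Saa3* only where the copies differ. Over the aligned coding bases, *Saa1* and *Saa2* were 95.1% identical, with a longest shared run of 73 bases, while *Saa3* was 76.0% identical to *Saa1* (longest shared run 58 bases) and 74.3% identical to *Saa2* (41 bases). The first 90 coding bases of each gene, from GENCODE M21 transcripts, are given below with the bases that differ from *Saa3* in capitals.
Saa3: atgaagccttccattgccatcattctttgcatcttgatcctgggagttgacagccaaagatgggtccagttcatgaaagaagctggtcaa
Saa1: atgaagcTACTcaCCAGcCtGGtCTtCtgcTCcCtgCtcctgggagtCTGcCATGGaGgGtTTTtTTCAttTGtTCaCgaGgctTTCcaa
Saa2: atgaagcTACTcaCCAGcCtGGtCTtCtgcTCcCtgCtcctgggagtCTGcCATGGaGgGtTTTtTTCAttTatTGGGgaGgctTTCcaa
In this stretch each of the other genes differed from *Saa3* at 44 of 90 positions.

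The bases before the start sites of *Saa3* and *Lcn2* are shown because these are the gene with the largest difference among the tested members and the most abundant member. Both come from RefSeq on GRCm38.p6, cover 250 bases before the annotated start and read 5′ to 3′ on the gene's own strand, with the C/EBP match in capitals (letters TTGCNNAA, both strands). *Saa3* lies on the minus strand and its sequence is chr7:46715677-46715926. *Lcn2* also lies on the minus strand and its sequence is chr2:32387740-32387989.
Saa3 promoter: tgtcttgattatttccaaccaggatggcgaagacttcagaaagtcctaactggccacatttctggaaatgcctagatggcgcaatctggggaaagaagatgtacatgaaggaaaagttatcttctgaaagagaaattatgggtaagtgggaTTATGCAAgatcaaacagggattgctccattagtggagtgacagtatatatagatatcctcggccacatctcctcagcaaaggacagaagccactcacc
Lcn2 promoter: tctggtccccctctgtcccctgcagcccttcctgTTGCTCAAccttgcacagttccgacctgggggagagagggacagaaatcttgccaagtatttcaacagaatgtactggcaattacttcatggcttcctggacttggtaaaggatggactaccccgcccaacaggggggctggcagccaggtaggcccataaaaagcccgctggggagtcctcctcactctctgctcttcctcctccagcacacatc
The match began 99 bases before the start in *Saa3* (-99) and 216 bases before it in *Lcn2* (-216). Of the 8 members with a promoter in the table, 6 held such a match in the window from 250 bases before to 50 after the start (*Saa1*, *Saa2*, *Saa3*, *Lcn2*, *Il6* and *Ptgs2*), against 10.8% of all 32851 promoters of the same length. Letters for part of the NF-κB motif (GGGNNTTTC, both strands) were found in 1 member, *Il6*, and in 4.36% of all promoters. In *Il6* the matches of both motifs lay apart, at -128 for C/EBP and -44 for NF-κB, and a match is only a description of the sequence.

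The level of *Atrx* itself was 153, 166 and 171 CPM in Atrx-cKO replicates 1 to 3 and 174, 166 and 165 CPM in control replicates 1 to 3, where CPM is the count scaled to library size by the TMM (trimmed mean of M values) method. This was a log2 fold change of -0.05 (standard error, herein SE, 0.08; adjusted p = 0.992). Adjusted p-values here are Benjamini-Hochberg values over all genes from the quasi-likelihood test of edgeR, unless DESeq2 is named. The *Atrx* count takes in the whole gene and all cells of the tibia, so it gives no check of the genotype labels. Among the 20636 genes with enough counts to test, 3 (0.0145%) were called, that is, had an adjusted p under 0.05 and changed by at least 1 on the log2 scale. They were *Cartpt* (a neuropeptide gene), *Tcfl5* (a transcription factor) and *Lyrm4* (a mitochondrial protein needed for iron-sulfur cluster assembly), and all 3 were higher in Atrx-cKO. None of them is among the 9 members other than *Saa3* or on the inflammation lists described below.

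*Saa3* (ENSMUSG00000040026, chr7:46711998-46715700, minus strand) had 3.08, 1.68 and 1.09 CPM in Atrx-cKO replicates 1, 2 and 3, from 180, 96 and 64 counts. In control replicates 1, 2 and 3 it had 0.35, 0.45 and 0.42 CPM, from 20, 30 and 20 counts. All 3 Atrx-cKO libraries lay above all 3 controls, and replicate 1 stood highest. The mean was 1.95 ± 1.02 CPM (SD, n = 3) in Atrx-cKO and 0.407 ± 0.0511 CPM (SD, n = 3) in control, a ratio of 4.79 and a fitted log2 fold change of 2.25 (SE 0.42). The 95% Wilson intervals, which cover counting error only, ran from 0.85 to 1.39 CPM in the lowest Atrx-cKO library and from 0.272 to 0.649 CPM in control replicate 3, whose upper bound was the highest of the controls. Intervals of the 3 Atrx-cKO libraries were 2.66 to 3.56, 1.38 to 2.05 and 0.85 to 1.39 CPM, so replicate 1 differed from the other 2 by more than counting error. Without replicate 1 the remaining Atrx-cKO libraries averaged 1.38 CPM, which was 3.40 times the control mean. In whole tissue, more cells that express a gene and more RNA per cell cannot be told apart.

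**Figure D1:**
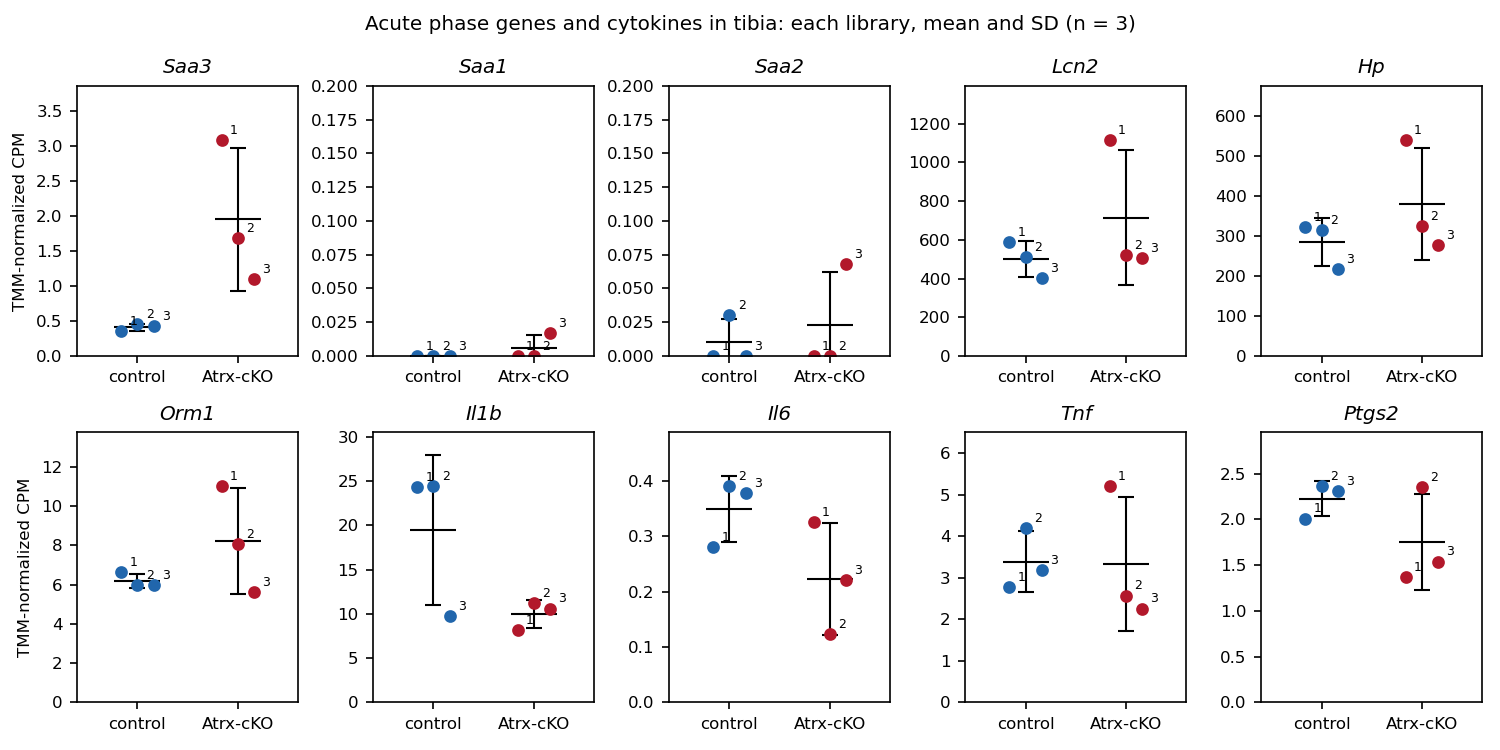
TMM-normalized CPM (vertical axes, linear from 0, each panel with its own range) of the 10 genes in each library, with control in blue and Atrx-cKO in red, replicate numbers beside the points, and the mean with SD (n = 3) in black. The *Saa3* points of the genotypes are apart, which follows from its choice as a gene higher in Atrx-cKO. *Lcn2*, *Hp* and *Orm1* overlap between genotypes and are highest in Atrx-cKO replicate 1.

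The other serum amyloid genes were at or near 0. *Saa1* (ENSMUSG00000074115) had 1 count in Atrx-cKO replicate 3 and 0 in the other 5 libraries. *Saa2* (ENSMUSG00000057465) had 4 counts in Atrx-cKO replicate 3, 2 in control replicate 2 and 0 in the rest, and *Saa4* (ENSMUSG00000040017), which encodes a constitutive serum amyloid A, had 0 in all 6. In the Atrx-cKO libraries, an allowance of 3 counts for a count of 0 corresponds to 0.0517 to 0.0544 CPM on library totals, without TMM factors. *Saa1* and *Saa2* did not pass the expression filter, so 8 of the 10 members entered the fit over all genes. The genotypes overlapped in all 7 of these other than *Saa3* (0 of 7), beside 8.31% of all tested genes without overlap, 4.30% with every Atrx-cKO library higher and 4.01% with every one lower.

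Neighboring genes of *Saa3* were read from the same fit. The nearest tested gene on one side, *Saal1* (serum amyloid A-like 1), had 14.3 ± 1.79 CPM in Atrx-cKO and 13.7 ± 1.42 CPM in control (SD, n = 3), a log2 fold change of 0.06 (SE 0.13). The nearest on the other side, *Hps5* (a subunit of a complex for lysosome-related organelles), had 46.5 ± 4.01 and 45.1 ± 1.03 CPM, a log2 fold change of 0.04 (SE 0.08). *Saa1*, *Saa2* and *Saa4* lie between *Saa3* and *Hps5* and were too low to test. Over the 10 tested genes on each side, log2 fold changes ran from -1.94 (SE 1.04) to 0.55 (SE 0.55) and the lowest adjusted p was 0.992. No neighbor had all Atrx-cKO libraries above all controls, and 1 of 20, the muscle transcription factor gene *Myod1*, had them all below. Over all genes tested these shares were 4.30% and 4.01%.

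**Figure D2:**
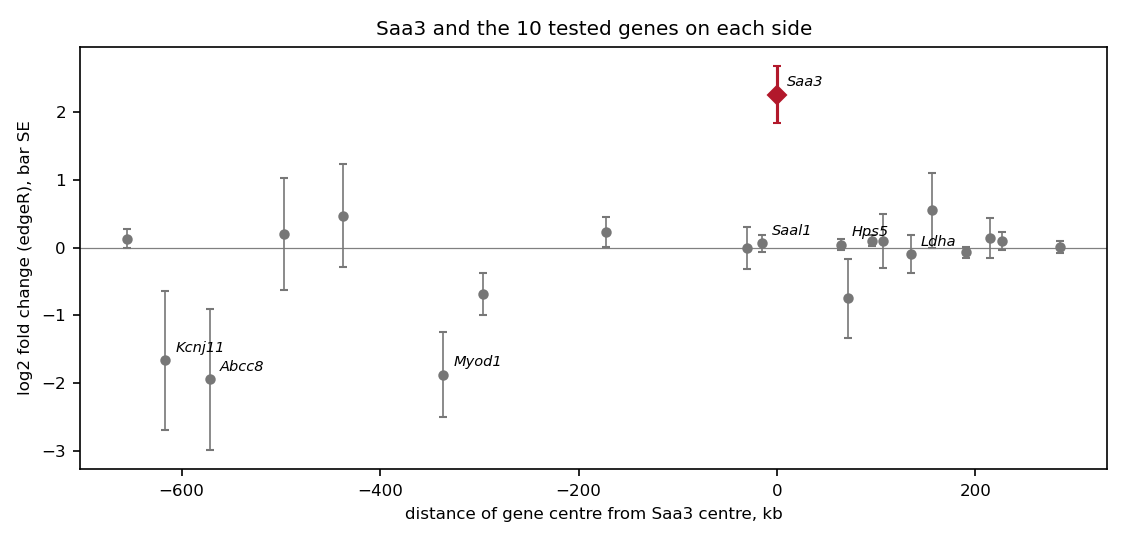
Log2 fold change (Atrx-cKO over control, edgeR) of *Saa3* (red) and of the 10 tested genes on each side (gray) against the distance between gene centers in kb, with bars for the standard error. *Saa3* stands at 2.25, and the 20 neighbors lie between -1.94 and 0.55.

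*Lcn2* (ENSMUSG00000026822, chr2:32384633-32388252) was the most abundant member, with 1116, 520 and 507 CPM in Atrx-cKO replicates 1 to 3 and 590, 511 and 401 CPM in control replicates 1 to 3. Replicate 1 of Atrx-cKO was 1.89 times the highest of the other 5 libraries, and the other Atrx-cKO libraries lay inside the control range. Means were 714 ± 348 and 501 ± 94.9 CPM (SD, n = 3), a log2 fold change of 0.51 (SE 0.31, 95% interval -0.22 to 1.24, adjusted p = 0.992 by edgeR).

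*Hp* (ENSMUSG00000031722, chr8:109575128-109579172) was likewise highest in Atrx-cKO replicate 1, with 540, 324 and 278 CPM in Atrx-cKO and 323, 315 and 217 CPM in control. Replicate 1 was 1.66 times the highest other library, and the genotypes overlapped. The log2 fold change was 0.42 (SE 0.26, 95% interval -0.19 to 1.03, adjusted p = 0.992). *Orm1* (ENSMUSG00000039196, chr4:63344560-63348163) encodes orosomucoid 1, a plasma glycoprotein that binds drugs and lipids. It had 11, 8.07 and 5.63 CPM in Atrx-cKO and 6.62, 5.97 and 5.96 CPM in control, so that Atrx-cKO replicates 1 and 2 were above every control and replicate 3 was below every control. Its log2 fold change was 0.41 (SE 0.23, 95% interval -0.13 to 0.96, adjusted p = 0.992).

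These 3 differences were smaller without Atrx-cKO replicate 1. In its absence, the mean of the other 2 Atrx-cKO libraries was 1.03 times the control mean for *Lcn2*, 1.06 times for *Hp* and 1.11 times for *Orm1*, beside 3.40 times for *Saa3*. In fits without replicate 1 the log2 fold change was 0.04 for *Lcn2*, 0.08 for *Hp* and 0.15 for *Orm1*, while that of *Saa3* was 1.76. Without Atrx-cKO replicate 3 the values were larger, at 0.70 for *Lcn2*, 0.60 for *Hp* and 0.62 for *Orm1*. Without control replicate 3 they were 0.36 for *Lcn2*, 0.24 for *Hp* and 0.37 for *Orm1*. Whether *Saa3* differed from the other 3 in this respect was not tested, because *Saa3* had been picked for its difference.

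**Figure D3:**
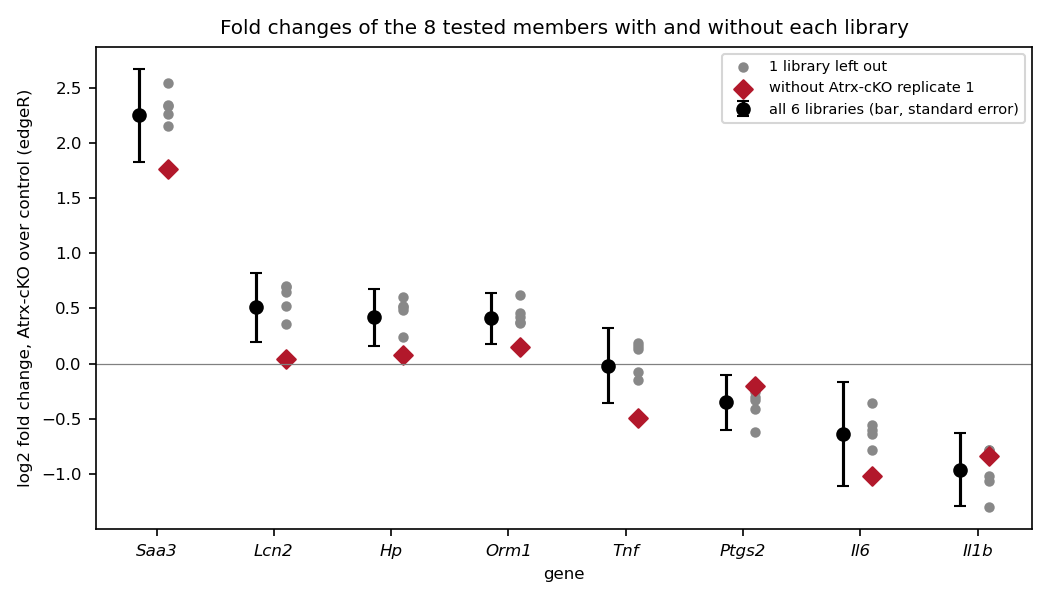
Log2 fold change (Atrx-cKO over control, edgeR) of the 8 tested members over all 6 libraries (black, bar for the standard error), with each library left out (gray) and without Atrx-cKO replicate 1 (red diamonds). Without replicate 1, *Lcn2*, *Hp* and *Orm1* lie between 0.04 and 0.15, and *Saa3*, chosen for its difference, is at 1.76.

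None of the cytokine genes passed the test in either direction. *Il1b* (ENSMUSG00000027398, chr2:129364570-129371139) encodes IL-1β and had 8.19, 11.2 and 10.6 CPM in Atrx-cKO and 24.3, 24.4 and 9.76 CPM in control. Control replicates 1 and 2 were above every Atrx-cKO library, and control replicate 3 lay among them. The mean was 10 ± 1.59 CPM in Atrx-cKO and 19.5 ± 8.42 CPM in control (SD, n = 3), a log2 fold change of -0.96 (SE 0.33, 95% interval -1.73 to -0.20). Its unadjusted p from edgeR was 0.0203, beside 2.05% of all genes lower at an unadjusted p under 0.05. It did not pass adjustment (adjusted p = 0.992 from edgeR), and no other member given a test had an unadjusted p under 0.05. An antisense gene, *Il1bos*, overlaps *Il1b* on the opposite strand with 28 to 91 counts per library, and since the strand setting of the counting is not given in the sources used here, reads of the pair cannot be told apart.

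*Tnf* (ENSMUSG00000024401, chr17:35199381-35202007) had 5.20, 2.57 and 2.26 CPM in Atrx-cKO and 2.77, 4.20 and 3.19 CPM in control. Its highest and its lowest values were both Atrx-cKO libraries, with a log2 fold change of -0.02 (SE 0.34, 95% interval -0.82 to 0.78, adjusted p = 0.998). *Il6* (ENSMUSG00000025746, chr5:30013114-30019981) was near the limit of detection, with 19, 7 and 13 counts in Atrx-cKO and 16, 26 and 18 in control. This corresponded to 0.223 ± 0.101 and 0.349 ± 0.0602 CPM (SD, n = 3), and the log2 fold change was -0.64 (SE 0.47, 95% interval -1.74 to 0.45, adjusted p = 0.992). Genotypes overlapped for both genes. Without Atrx-cKO replicate 1 the log2 fold changes were -1.02 for *Il6* and -0.49 for *Tnf*, and without Atrx-cKO replicate 2 they were -0.36 and 0.13. *Ptgs2* (ENSMUSG00000032487, chr1:150100031-150108227), the inducible cyclooxygenase that begins prostaglandin synthesis, had 1.37, 2.35 and 1.54 CPM in Atrx-cKO and 2.01, 2.36 and 2.31 CPM in control. The groups overlapped through Atrx-cKO replicate 2, and the log2 fold change was -0.35 (SE 0.25, 95% interval -0.94 to 0.25, adjusted p = 0.992). For *Ptgs2* it was -0.20 without Atrx-cKO replicate 1 and -0.62 without Atrx-cKO replicate 2.

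Of the 7 members tested other than *Saa3*, 0 had an adjusted p under 0.05 with edgeR, beside 0.0145% of all genes tested. In the same test 1 had an unadjusted p under 0.05 (*Il1b*, lower), beside 2.05% of all genes lower. DESeq2 gave an adjusted p under 0.05 for 0 of them (lowest 0.228), beside 23 genes called over all genes. Without *Saa3*, whose value had chosen it, the median log2 fold change of the 7 was -0.02 (3 above 0 and 4 below), beside 0.005 over all genes tested. In the 6 libraries the summed CPM of the members was 1685, 870 and 807 in Atrx-cKO replicates 1 to 3 and 949, 863 and 640 in controls, and most of that sum was *Lcn2* and *Hp*.

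Levels were set against each other per kb of the principal transcript, as TMM-normalized CPM per kb. In control tibias *Lcn2* was highest at 547 ± 104 and *Hp* next at 212 ± 43.9 (SD, n = 3). *Il1b* at 14.4 ± 6.21 and *Orm1* at 7.98 ± 0.488 followed, and their ranges overlapped. *Tnf* at 2.07 ± 0.449 came before *Saa3* at 0.733 ± 0.0921, *Ptgs2* at 0.50 ± 0.0415 and *Il6* at 0.306 ± 0.0527, with ranges that did not overlap between neighbors in this order, and *Saa2* and *Saa1* were last. In Atrx-cKO tibias *Saa3* reached 3.51 ± 1.84, a range that overlapped that of *Tnf* (2.04 ± 0.985). Even there *Saa3* remained a transcript of low abundance beside *Lcn2* at 781 ± 380.

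The wider response was read from 113 further genes in 6 lists (other acute phase proteins; IL-1, IL-6 and TNF ligands and receptors; NF-κB, STAT3 and C/EBP factors and feedback genes; inflammatory chemokines; prostaglandin and nitric oxide genes; receptors for acute phase proteins), of which 100 passed the expression filter. None of the 100 had an adjusted p under 0.05 with edgeR (lowest 0.992), beside 0.0145% of all genes tested. No listed gene did with DESeq2 (lowest 0.208), which called 23 genes over all genes. With so few genes passing anywhere, these counts of 0 do not show that the lists were unchanged. At an unadjusted p under 0.05, 6 were higher and 0 lower, beside 1.59% and 2.05% of all genes tested. With genotypes that did not overlap, 8 were higher (8.0%) and 1 was lower (1.0%), beside 4.30% and 4.01% of all genes. In Atrx-cKO replicates 2 and 3, the mean CPM of these genes was a median of 1.03 times the control mean, with a range of 0.685 to 2.77.

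Over all genes tested, 10572 had a log2 fold change above 0 and 10064 below. Among the 26 other acute phase proteins, 17 were tested, 12 had a log2 fold change above 0 and 5 below, and their median was 0.22. The most abundant was *Cp* (ceruloplasmin, a copper-carrying ferroxidase), with 408, 439 and 406 CPM in Atrx-cKO and 324, 348 and 306 CPM in control. Every Atrx-cKO library was above every control, and the log2 fold change was 0.36 (SE 0.09, unadjusted p = 0.00456, adjusted p = 0.992 by edgeR). *C3*, the central complement component, had 294 ± 28.8 and 294 ± 59.1 CPM (SD, n = 3). *Steap4*, a metalloreductase, had a log2 fold change of 0.23 (SE 0.10, adjusted p = 0.992). *Lrg1* (leucine-rich alpha-2-glycoprotein) had 196, 73.2 and 59.3 CPM in Atrx-cKO and 82.4, 79.4 and 60.9 CPM in control, so that replicate 1 was 2.38 times the highest other library and the other 2 Atrx-cKO libraries were at 0.893 times the control mean. *Serpina3g*, a protease inhibitor gene, had genotypes that did not overlap (12.2 ± 2.0 against 7.30 ± 2.21 CPM, log2 fold change 0.74, SE 0.25, adjusted p = 0.992). *Mt1* (metallothionein 1, which binds zinc and copper) was separate in the other direction, with 32.9, 29.8 and 32.8 CPM in Atrx-cKO and 33.7, 34.3 and 48.5 CPM in control (log2 fold change -0.29, SE 0.15, adjusted p = 0.992).

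All 20 IL-1, IL-6 and TNF ligands and receptors were tested, with a median log2 fold change of 0.14, 15 above 0 and 5 below. *Il6st*, the gp130 subunit shared by the IL-6 family, had 389, 388 and 415 CPM in Atrx-cKO, all above the 369, 361 and 356 CPM in control. Its log2 fold change was 0.13 (SE 0.08, adjusted p = 0.992), that of *Lifr* (the leukemia inhibitory factor receptor) 0.15 (SE 0.13) and that of *Tnfrsf1a*, the main TNF receptor, 0.03 (SE 0.09). *Il1rn*, the IL-1 receptor antagonist, had 39.9, 14.2 and 16.2 CPM in Atrx-cKO and 17.0, 18.0 and 10.3 CPM in control, and *Il1r2*, the decoy receptor, was 2.15 times the highest other library in Atrx-cKO replicate 1. The highest log2 fold change on this list was 1.83 (SE 0.72, adjusted p = 0.992) for *Lta* (lymphotoxin alpha), from 25, 18 and 11 counts in Atrx-cKO against 3, 2 and 9 in control.

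The 24 NF-κB, STAT3 and C/EBP factors and feedback genes, a list that also held adhesion molecule genes such as *Vcam1* and *Sele*, were all tested. They had a median log2 fold change of 0.06, between -0.11 and 0.49, with 19 above 0 and 5 below. *Vcam1*, a leukocyte adhesion molecule and the most abundant of them, had 310, 477 and 429 CPM in Atrx-cKO and 439, 304 and 339 CPM in control, with Atrx-cKO replicate 1 near the bottom. *Stat3* had 185 ± 27.7 CPM in Atrx-cKO and 179 ± 5.43 CPM in control, and *Nfkb1* 119 ± 4.30 and 113 ± 4.52 CPM (SD, n = 3). *Bcl3*, an IκB family member, had 42.2, 14.4 and 14.5 CPM in Atrx-cKO and 18.9, 15.5 and 16.3 CPM in control. *Socs3*, the feedback inhibitor of STAT3 signaling, had 55.3, 25.5 and 29.6 CPM in Atrx-cKO and 26, 29.6 and 26.9 CPM in control. In both genes replicate 1 was high and the other Atrx-cKO libraries were below the controls or close to them. In 2 of the 24 genes, *Sele* and *Ier3*, every Atrx-cKO library was above every control, and in 0 below, beside 4.30% and 4.01% of all genes. Their log2 fold changes were 0.31 (SE 0.12) for *Sele* and 0.26 (SE 0.15) for *Ier3* (adjusted p = 0.992 each by edgeR).

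Inflammatory chemokines had a median log2 fold change of 0.43 over 13 tested of 16, with 11 above 0 and 2 below, and a median of 0.21 without the expression filter or by DESeq2. *Cxcl9*, an interferon-induced chemokine, had 18.1, 29.2 and 24.2 CPM in Atrx-cKO and 14.9, 17.4 and 9.26 CPM in control, which did not overlap (log2 fold change 0.79, SE 0.25, unadjusted p = 0.0158, adjusted p = 0.992). *Ccl9*, the most abundant, had a log2 fold change of 0.01 (SE 0.15). The monocyte attractants *Ccl2* and *Ccl8* were highest in Atrx-cKO replicate 1, at 2.0 and 2.51 CPM, or 2.11 and 2.60 times the highest other library. Prostaglandin and nitric oxide genes had a median of 0.14 (14 tested of 15), with 12 above 0 and 2 below. *Alox5ap*, which supplies 5-lipoxygenase with its substrate, was 1.74 times the highest other library in Atrx-cKO replicate 1. Receptors for acute phase proteins had a median of 0.09 (12 tested of 12), with 10 above 0 and 2 below. That list also held the adaptor gene *Myd88*. *Lrp1*, a large endocytic receptor and the most abundant, had 778, 791 and 758 CPM in Atrx-cKO and 725, 852 and 831 CPM in control (log2 fold change -0.05, SE 0.10), whereas *Fpr2*, a formyl peptide receptor that binds serum amyloid A, had 63.3, 31.0 and 29.4 CPM in Atrx-cKO and 27.4, 32.6 and 20.3 CPM in control.

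**Figure D4:**
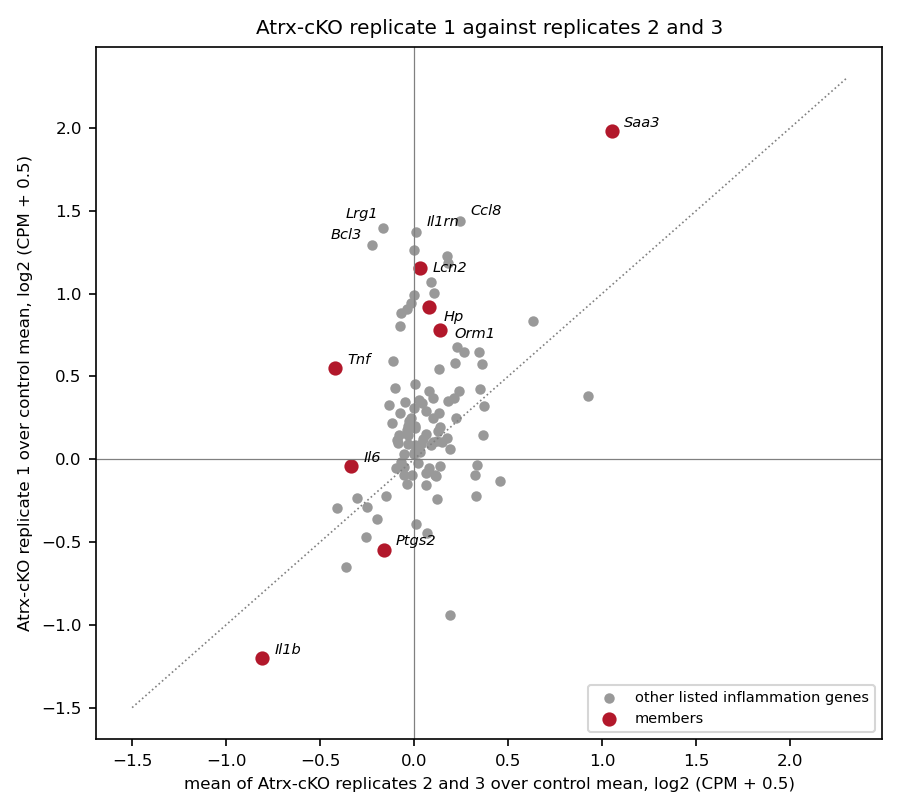
Atrx-cKO replicate 1 over the control mean (vertical) against the mean of Atrx-cKO replicates 2 and 3 over the control mean (horizontal), both as log2 ratios of CPM + 0.5, for the 8 tested members (red) and the 100 other listed inflammation genes (gray), with the dotted line marking equal values. *Lcn2*, *Hp*, *Lrg1*, *Bcl3* and *Il1rn* are high on the vertical axis and near 0 or below on the horizontal one. *Saa3* is high on each axis, which follows from its choice as a gene higher in Atrx-cKO.

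Atrx-cKO replicate 1 stood apart for many inflammation genes, a pattern noticed after the values were seen and given as a description. It was at least 1.5 times every other library in 2 of the 7 members tested other than *Saa3* (*Lcn2* and *Hp*) and in 15 of the 100 other listed genes, beside 1.26% of all genes tested. By list these were 4 of 17 acute phase genes, 3 of 20 IL-1, IL-6 and TNF genes, 2 of 24 factors and feedback genes, 3 of 13 chemokines, 1 of 14 prostaglandin and nitric oxide genes and 2 of 12 receptors. It was the highest library for 4 of the 7 members and 46 of the 100 listed genes, beside 21.8% of all genes. The share of all genes in which a library was at least 1.5 times every other was 0.582% and 0.722% for Atrx-cKO replicates 2 and 3, 0.664% and 0.722% for control replicates 1 and 2, and 3.17% for control replicate 3. Without Atrx-cKO replicate 1, the median log2 fold change fell from 0.22 to 0.01 for the other acute phase proteins, from 0.14 to 0.0028 for the IL-1, IL-6 and TNF genes, from 0.06 to 0.0058 for the factors and feedback genes and from 0.43 to 0.15 for the chemokines. It went from 0.14 to 0.11 for the prostaglandin and nitric oxide genes and from 0.09 to 0.05 for the receptors. Control libraries moved these medians too. Without control replicate 3 they were 0.19 for the chemokines, 0.03 for the prostaglandin and nitric oxide genes and -0.0063 for the receptors, and without control replicate 1 the receptors were at 0.21.

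Markers of other cell types were set beside these values, and their part in the results was not tested. The 15 neutrophil markers (most abundant, *Ngp*) summed to 15800, 11497 and 11258 CPM in Atrx-cKO replicates 1 to 3 and to 13399, 11270 and 9591 CPM in controls. They were highest in Atrx-cKO replicate 1 for 12 of 15 genes, and 1 of 15, *Prtn3*, was at least 1.5 times every other library. The neutrophil sum was highest in replicate 1. The 13 monocyte and macrophage markers, from cells that can make *Saa3*, summed to 1355, 1314 and 1312 CPM in Atrx-cKO and 1321, 1387 and 1153 CPM in control (most abundant, *Csf1r*). The 9 adipocyte markers summed to 175, 257 and 270 CPM and 232, 172 and 253 CPM (most abundant, *Fabp4*).

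Liver RNA markers were near 0. The 10 hepatocyte markers summed to 0.667, 1.03 and 0.831 CPM in Atrx-cKO and 0.491, 0.42 and 0.567 CPM in control, *Ttr* (transthyretin) had 0 counts in all libraries and *Alb* (albumin) at most 7. The 2 hepatocyte markers with enough counts to test, *Apoa2* and *Hnf4a*, had 15 to 22 and 15 to 19 counts in the Atrx-cKO libraries and 6 to 12 and 4 to 8 in controls. Skeletal muscle stood out in control replicate 3, with 13053 summed CPM (most abundant, *Myh4*) beside 2688, 1337 and 770 CPM in Atrx-cKO and 928 and 1024 CPM in the other controls. The 11 osteoblast lineage markers, led by *Col1a1*, summed to 111815 to 188908 CPM in every library, so the markers of the labelled tissue were present. Erythroid sums ran from 2409 to 6230 CPM, both in control libraries, and B and plasma cell sums from 229 to 395 CPM. Endothelial sums were 760, 765 and 763 CPM in Atrx-cKO and 732, 667 and 679 CPM in control. Of the 7 endothelial markers, 3 had every Atrx-cKO library above every control, beside 4.30% of all genes. At an unadjusted p under 0.05 by edgeR, 2 of the 7 were higher and 0 lower, beside 1.59% and 2.05% of all genes. The 2 tested hepatocyte markers were separate and higher, each with an unadjusted p under 0.05 by edgeR. Of the 13 monocyte and macrophage markers, 1 was separate and higher and 1 (*Csf1r*) separate and lower, each with such a p. Of 15 neutrophil markers 1 was separate and higher. Of 11 osteoblast lineage markers 1 was separate and lower, beside 4.01% of all genes. The other marker lists had 0 separate genes. The median log2 fold change, with its range when 1 library was left out, was 0.17 for neutrophil (0.02 to 0.26, lowest without Atrx-cKO replicate 1), 0.13 for monocyte and macrophage (0.01 to 0.19) and -0.36 for adipocyte markers (-0.48 to -0.23). It was 0.13 for B and plasma cell (-0.04 to 0.42), 0.10 for erythroid (-0.17 to 0.67), -0.19 for osteoblast lineage (-0.33 to -0.08) and 0.13 for endothelial markers (0.10 to 0.20). It was -1.56 for skeletal muscle, which became 0.63 without control replicate 3, and 1.28 over the 2 hepatocyte genes, which became -1.23 when all detected hepatocyte genes entered without a filter. None of these marker genes had an adjusted p under 0.05 with edgeR (lowest 0.992), beside 0.0145% of all genes tested. None did with DESeq2 (lowest 0.389), beside 23 genes called over all genes.

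**Figure D5:**
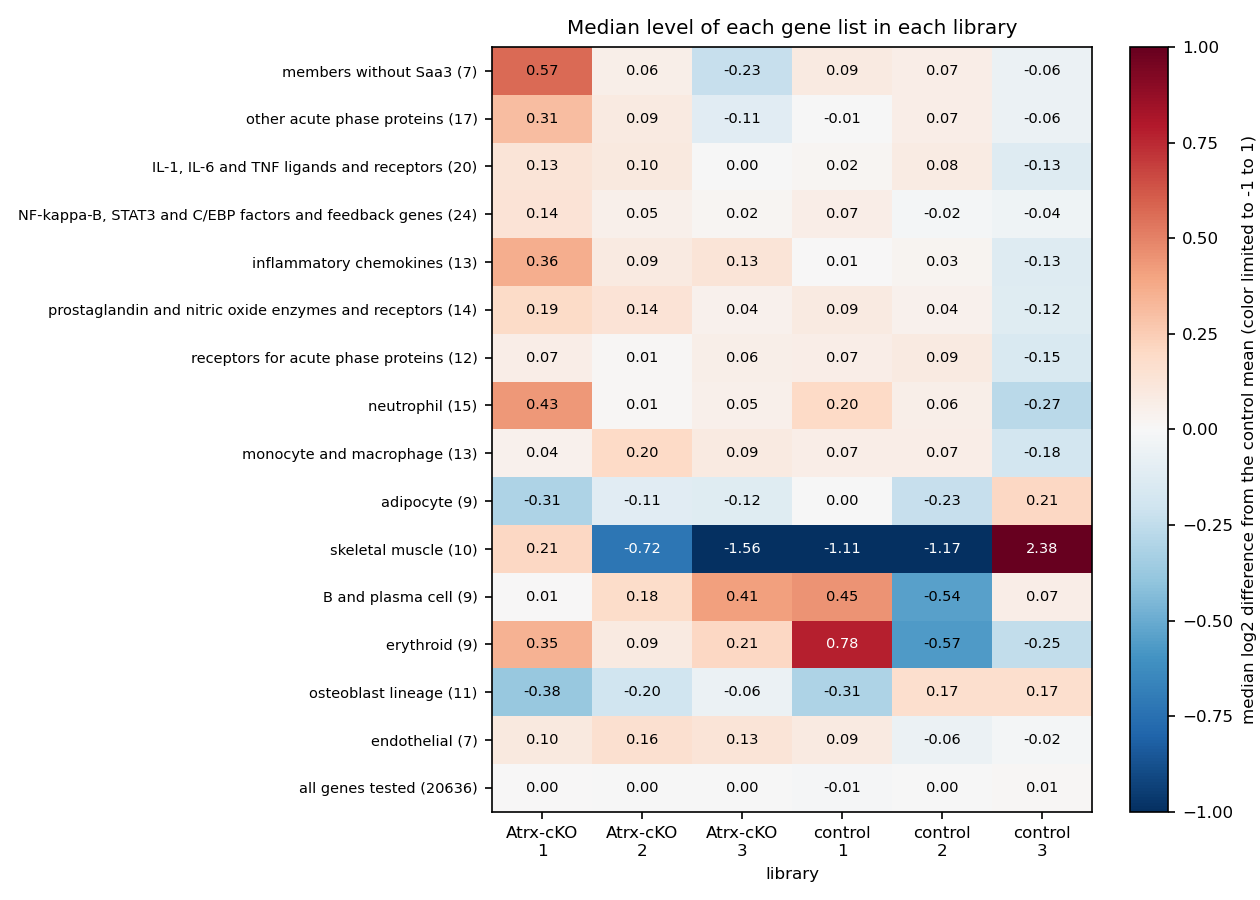
Median over the tested genes of each list (rows, number of genes in brackets) of the log2 difference of a library from the control mean, on the log2(CPM + 0.5) scale, with red for higher and blue for lower and colors limited to -1 to 1. The 7 members other than *Saa3* are at 0.57 in Atrx-cKO replicate 1 and at 0.06 and -0.23 in replicates 2 and 3, and skeletal muscle is at 2.38 in control replicate 3.

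Genes with the pattern of *Saa3* across the 6 libraries were ranked by Pearson's r of log2(CPM + 0.5) over the 16168 tested genes with a mean of at least 1 CPM. The closest were *Xrcc2* and *Ywhab* (r = 0.990 each), *Gm43597* and *Gng12* (0.988 each) and *Nkap* (0.985), and in all 5 every Atrx-cKO library was above every control. Since *Saa3* was chosen for its difference between genotypes, genes without that separation could not rank as high. Their differences were small, for example 8.0, 7.21 and 6.63 CPM in Atrx-cKO against 5.78, 6.02 and 6.17 CPM in control for *Xrcc2*, a DNA repair gene. Among the members, whose genotypes overlap, r with *Saa3* was 0.839 for *Orm1*, 0.750 for *Hp*, 0.742 for *Lcn2*, 0.320 for *Tnf*, -0.639 for *Ptgs2* and -0.701 for *Il1b*. The pattern of *Lcn2* was closest to *Uchl5* (0.999), *Prss57* (0.998), *Anxa1* (0.997), *Lbp* (0.996) and *Tpm3* (0.995), of which *Lbp* (lipopolysaccharide-binding protein) is an acute phase gene and *Anxa1* and *Prss57* are expressed in myeloid cells. *Hp* followed *Lcn2* with r = 0.970. With 6 libraries and a ranking over all genes, these values only describe the pattern of levels over these libraries.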

How the data were processed

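RNA from 6 tibias was processed into libraries, sequenced and analyzed for the study by GENEWIZ. The authors deposited raw read counts per gene, 1 table per library, with 55401 Ensembl identifiers and 5 summary entries. GRCm38 and DESeq2 are named in the submitters' processing notes, and the aligner and counting program are not given in the sources used here. Summary entries, mostly reads on no feature (51.6% to 52.4% of counts), entered neither library sizes nor tests.

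Identifiers were named by GENCODE M21 on GRCm38 (55141 matched, 260 did not). Counts were fitted with edgeR 4.0.16 in R 4.3.3 (filterByExpr, TMM, glmQLFit and glmQLFTest, genotype alone), with p-values adjusted by Benjamini-Hochberg over all 20636 genes. Standard errors were derived from the fold change and its F statistic. DESeq2 1.42.0, other normalizations, filters, a replicate block and fits without each library were alternatives. The fits were tested on simulated data. Libraries of a genotype differed by more than sampling noise (chi-square per degree of freedom 17.4 to 154), and p-values measure the spread between these mice only.

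The members and lists were chosen with earlier results of these data known. Named genes were the members, *Saa4*, the nearest neighbors of *Saa3*, the called genes, genes among the 4 most abundant of each list and the genes most like *Saa3* and *Lcn2*. *Serpina3g*, *Mt1*, *Il1rn*, *Il1r2*, *Lta*, *Bcl3*, *Socs3*, *Sele*, *Ier3*, *Ccl2*, *Ccl8*, *Fpr2*, *Prtn3*, *Myod1*, *Alb*, *Ttr* and *Il1bos* were named after their values were seen. The most abundant prostaglandin and nitric oxide gene is not reported here.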

Additional observations from a re-analysis of the deposited data

How the results depend on the processing

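The direction of *Saa3* was fixed by its choice, since its genotypes do not overlap. Its log2 fold change was 2.14 under the replicate block, 2.25 by DESeq2 and from 1.76 to 2.54 with 1 library left out, and its CPM ratio ran from 3.40 to 5.85 with 1 library left out. No tested member other than *Saa3* reached an adjusted p of 0.05 in any alternative, the lowest being 0.158 for *Il1b*. *Tnf*, at -0.02, ran from -0.49 to 0.19 with 1 library left out, and was above 0 when replicate 2 (0.13) or 3 (0.19) of Atrx-cKO or replicate 2 of control (0.16) was left out. The count of members with separate genotypes, 1, ran from 1 to 3 with 1 library left out (beside *Saa3*: *Il6* and *Tnf* lower without Atrx-cKO replicate 1, *Ptgs2* lower without Atrx-cKO replicate 2, *Hp* and *Orm1* higher without Atrx-cKO replicate 3, *Il6* lower without control replicate 1 and *Il1b* lower without control replicate 3). In the same settings 14.7% to 27.9% of all tested genes separated, beside 8.31% over all 6 libraries.

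Over all genes, 3 were called, and 5 without a filter, 1 with at least 10 counts in every library, 23 by DESeq2 and 0 to 5 with 1 library left out (0 without Atrx-cKO replicate 1 or 2 or control replicate 2, 5 without control replicate 3). With the replicate number as a block 0 were called. The sources used here do not say whether replicate numbers pair the mice. Deviations of same-numbered libraries correlated at -0.003, 0.108 and -0.100, and those of differently numbered libraries at -0.143 to 0.108. Such values cannot show whether mice shared a litter or a batch, so the block result is given as an alternative. The cause of the differences in the number of genes called was not tested.

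With 1 library left out, list medians ran from 0.01 to 0.28 (other acute phase proteins), 0.0028 to 0.21 (IL-1, IL-6 and TNF), 0.0058 to 0.12 (NF-κB, STAT3 and C/EBP), 0.15 to 0.50 (chemokines), 0.03 to 0.19 (prostaglandin and nitric oxide) and -0.0063 to 0.21 (receptors). The chemokine median was 0.21 with no filter and by DESeq2, where more genes entered. No hepatocyte gene had 10 counts in every library, so that filter gave no median for them. Genes of few counts, such as *Il6*, *Saa1* and *Saa2*, are limited by depth, and 3 libraries per genotype limit all comparisons.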
